A study of Mus musculus with 2 samples.

Results

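The genes for the subunits of the proteasome and of its assembly and regulatory partners were followed in an H3K36me3 profile of primary keratinocytes (KCs). They were taken as all protein-coding genes whose symbol begins with Psma, Psmb, Psmc, Psmd, Psme, Psmf or Psmg followed by a number, and 50 of the 21938 coding genes of the GENCODE vM21 annotation of GRCm38 fit this rule. The rule uses names only and no measured value. H3K36me3 was measured by chromatin immunoprecipitation followed by sequencing (ChIP-seq) in skin KCs of 10-week-old C57BL/6 mice of the genotype Setd2fl/fl, which carry floxed alleles of Setd2, and the labels name no Cre allele and no treatment. There was 1 ChIP library and 1 input library, made from chromatin fixed in formaldehyde, and the input library was not analysed here. Without a second ChIP library no value below has a replicate error and no difference was tested. The depth of the library is unknown, so a gene without a peak is one where none was called, not one shown to lack the mark.

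The proteasome is the large protease that degrades ubiquitin-tagged proteins. Its core particle, the 20S, is a barrel of alpha and beta rings with the active sites inside, and the 19S regulatory particle caps it, binds the ubiquitin chain, unfolds the substrate and feeds it in. In cells exposed to interferon the active beta subunits are exchanged for immune forms that favour peptides for antigen presentation. H3K36me3 is placed by SETD2, which travels with elongating RNA polymerase II, and the mark is therefore known as one of transcribed gene bodies. The transcription factors NRF1 and NRF2, encoded by Nfe2l1 and Nfe2l2, raise proteasome gene transcription through antioxidant response elements in the promoters.

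The promoters of 42 members were found by symbol in RefSeq (GRCm38.p6), each as 250 bases before and 50 bases after the start. The core of the antioxidant response element, TGANNNNGC on either strand, was present in 24 of the 42 (57.1%), and in 45.05% of the 27025 genes with a window of this length. The matches shown, 1 per gene, are those of the members with the most (Psmc6) and the least (Psmg4) of the body marked among genes with a peak, of the neighbours Psmb5 and Psmb11, and of beta subunits that replace each other (Psmb5 by Psmb8, Psmb6 by Psmb9). Capitals mark the core, every line is read 5′ to 3′ on the gene's strand, and the cores shown for Psmb11 and Psmg4 are on the other strand, so the reverse complement is in capitals. Psmb5, Psmc6 and Psmg4 each hold a second match that is not shown.
Psmb5, chr14:54618025-54618051, minus strand: gtgaagttgTGACGTCGCggcgttgcc
Psmb8, chr17:34198209-34198235, plus strand: tggtttcacTGATGTGGCagcaggaaa
Psmb6, chr11:70525339-70525365, plus strand: taaagagagTGACGGAGCgctttacga
Psmb9, chr17:34187373-34187399, minus strand: cttgcgcgaTGATGGGGCggggcctca
Psmb11, chr14:54625062-54625088, plus strand: tgacaggtgGCGTCTTCAgagtgtagg
Psmc6, chr14:45329574-45329600, plus strand: acttaatatTGAGCCAGCcagtagcta
Psmg4, chr13:34162928-34162954, plus strand: ctaggccccGCCCACTCAtgctcgccc
Members with the core had a median of 61.3% of the gene body in peaks and members without it 69.3%. A peak lay on 23 of the 24 genes with the core and on 17 of the 18 without it. A match of these letters is a description of the window and not a binding site.

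H3K36me3 peaks lay on the bodies of 47 of the 50 proteasome genes (94.0%), against 51.4% of all coding genes. The genes without a peak were Psma8, Psmb11 and Psme2b, that is the testis alpha subunit, the thymus beta subunit and a short Psme2-like gene. The covered share, meaning the percent of bases between the annotated start and end of a gene that lie in a called peak, had a median of 64.1% over the 50 members (quartiles 43.9% and 81.3%) and of 1.07% over all coding genes. At least 50% of the body was covered in 35 members (70.0%), against 23.8% of coding genes, and at least 80% in 17 members (34.0%), against 6.54%. Added up, peaks took 54.0% of the bases of the members.

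**Figure D1:**
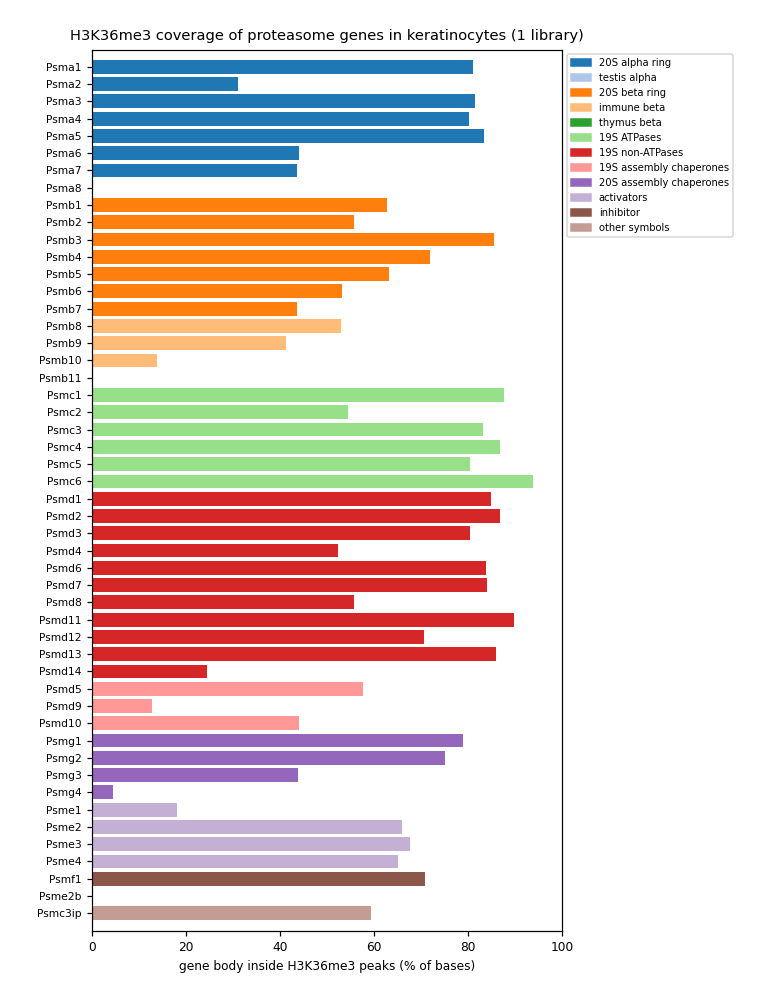
Percent of each gene body in H3K36me3 peaks for the 50 proteasome genes, coloured by subunit class, 1 bar per gene in 1 ChIP library. The 19S ATPase bars run from 54.4% to 93.8%, and the bars of Psma8, Psmb11 and Psme2b are at 0.

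The median covered share of all members was also above that of other genes within their length quartiles. Of 7469 other coding genes between the length quartiles of the members (6627 to 24842 bp), 54.7% had a peak, and their median covered share was 9.53%. Among the genes with a peak alone, the median was 65.9% for the members, of any length, and 56.3% for these genes. Members of at most 4 kb had a peak in 9 of 10 cases and a median covered share of 53.0%, whereas a peak lay on 19.9% of the 3244 coding genes of at most 4 kb.

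By their median, the peaks on the members were also wider than the peaks of the whole table. The members carried 94 of its 45575 peaks. Their median width was 4809 bp, against 1614 bp for all peaks. The widest, of 44006 bp, lay on Psme4, and the narrowest, of 249 bp, lay on Psmb7. The height of a peak is given by its fold enrichment, the ratio of ChIP signal to local background from the peak caller, and by the −log10 of the caller's P. The median fold enrichment of the member peaks was 3.18 and that of all peaks 2.90, and 40.4% of the member peaks had a P below 1e-05 compared with 12.8% of all peaks.

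Taking the highest peak of each gene, the members had a median fold enrichment of 3.55 (quartiles 3.23 and 3.73), and all coding genes with a peak had 3.36 (3.12 and 3.56). A peak with a P below 1e-05 lay on 33 members (66.0%), against 24.6% of coding genes. A peak of at least 3-fold lay on 45 members (90.0%), against 42.6% of coding genes. The highest was on Psmd8, a lid subunit of the 19S particle (chr7:29174188-29180701), with a fold enrichment of 4.11 and a −log10 P of 7.23. Psma6 and Psmc5 at 3.95, Psmd2 at 3.94 and Psmd3 at 3.91 followed. The peak on Psmd8, with 75.1% of its width on that gene, also lay on Ggn. That on Psmc5, with 57.2% of its width on Psmc5, also lay on Smarcd2. The highest fold of any peak was 6.97. The members named here lay below it, but above the upper quartile of 3.56 of all coding genes with a peak.

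**Figure D2:**
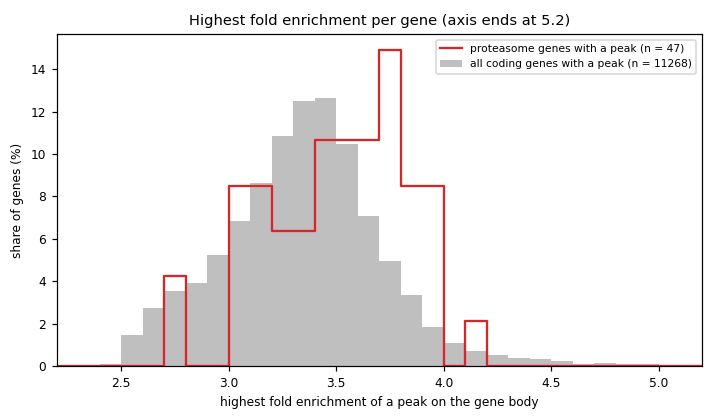
Fold enrichment of the highest H3K36me3 peak per gene, for proteasome genes and for all coding genes with a peak. Members range from 2.76 to 4.11 with a median of 3.55, and all coding genes have a median of 3.36.

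The alpha ring is the gate of the core particle. All 7 of its genes expressed in somatic cells carried a peak with a P below 1e-05, and the median covered share was 80.2%. Psma5 was covered over 83.3% of its 23049 bp by a single peak of 20772 bp with a fold enrichment of 3.73. Psma3 (81.4%), Psma1 (80.9%) and Psma4 (80.2%) lay just below. Psma7 was at 43.5%, with a fold enrichment of 3.85.

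Psma2 and Psma6 had low covered shares on long annotated bodies. The annotated body of Psma2 was 60997 bp and 31.0% of it was covered, whereas its longest coding transcript spanned 14397 bp and was covered over 81.1%. Psma6 had 44.0% of 34233 bp covered, and 76.6% of the 19680 bp of its transcript. On the transcript span both lay near Psma1, Psma3, Psma4 and Psma5 and above Psma7.

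Psma8, which takes the place of Psma7 in the proteasome of male germ cells, had no peak on its 56151 bp (chr18:14706151-14762301). The nearest peak lay 26891 bp away. Its nearest coding neighbour Taf4b, at 20943 bp, was covered over 4.60%, and Ss18, a chromatin remodelling gene on the other side at 23236 bp, over 67.0%.

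The beta ring holds the active sites. Its 7 constitutive genes all carried peaks, with a median covered share of 62.7% and a median highest fold enrichment of 3.62. Psmb3 reached 85.4% of its body at a fold of only 3.20, Psmb4 71.9% at 3.73 and Psmb1 62.7% at 3.69. Psmb3 had the highest share of the class, and the 3 catalytic genes lay on both sides of the class median. Psmb5, the chymotrypsin-like subunit (chr14:54614119-54618022), was covered over 63.2% with a fold enrichment of 3.64, by 1 peak from chr14:54611679-54616587. Psmb6, the caspase-like subunit, was at 53.1% and 3.38. Psmb7, the trypsin-like subunit, had 43.5% of 56052 bp covered by 7 separate peaks, of which the highest reached 3.45. Psmb2 (55.7%) was likewise broken into 4 peaks.

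The immune beta genes had smaller covered shares than the constitutive genes whose products they replace. Of the 3, 1 (Psmb9) had a P below 1e-05, beside 24.6% of all coding genes. Psmb8, which replaces Psmb5, had 52.9% of its 3734 bp covered at a fold enrichment of 3.03. Psmb9, which replaces Psmb6, had 41.2% of 5778 bp covered at 3.37. Psmb10, which replaces Psmb7, had a single peak of 370 bp on 2710 bp, which is 13.7% of the body, at a fold of 2.76 and a −log10 P of 3.40.

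Each constitutive gene thus had the higher covered share and the higher fold of its pair. The folds of Psmb6 and Psmb9 were 3.38 and 3.37 while their −log10 P ran the other way, at 5.01 and 5.11, so the height of this pair has no clear order. The peptide transporter genes beside Psmb8 and Psmb9, which serve the same antigen presentation, were covered over 78.2% (Tap1) and 56.5% (Tap2). Tap1 overlaps the start of Psmb9 and lies 495 bp from Psmb8.

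Psmb11, known as the beta subunit of thymic cortical epithelium, had no peak on its 8124 bp (chr14:54621433-54629556). From its annotated start it lies 3410 bp from Psmb5, a covered gene. Its coding transcript of 4247 bp starts farther from Psmb5, at chr14:54625310. The nearest peak, 2416 bp from Psmb11, had a fold of 2.64 and was not that of Psmb5 (3.64). Cdh24, a cadherin gene 1674 bp from Psmb11 on the other side, was covered over 31.1%.

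The 6 ATPases of the 19S base, which form the ring that unfolds substrates, were the most fully covered class, with a median of 85.0% and a P below 1e-05 in all 6. Psmc6 was covered over 93.8%, the highest share of any member, by 1 peak of 19277 bp with a fold enrichment of 3.51 (gene at chr14:45329788-45349705). Psmc1 (87.6%), Psmc4 (86.8%), Psmc3 (83.2%) and Psmc5 (80.3%) followed. Psmc2 was lower, at 54.4%, with 3 peaks of which the last reached 3.76. Peaks in this class began close to the gene start, at a median of 1298.5 bp against 2646 bp over all members.

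The 11 other 19S subunits had a median covered share of 83.7%. Psmd11, a lid subunit, was covered over 89.8% of 44634 bp. Psmd2, the base scaffold that docks ubiquitin receptors, was covered over 86.9% and Psmd13 over 85.9%. Psmd1, the other large scaffold, had 84.8% of its 74765 bp covered by 5 peaks. Psmd7, the partner of the deubiquitinase, was at 83.9%, Psmd6 at 83.7% and Psmd3 at 80.3%. Psmd12 was at 70.7%, Psmd8, the gene with the highest fold, at 55.7%, and Psmd4, a ubiquitin receptor, at 52.3%.

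Psmd14, the deubiquitinase of the lid, was the exception in this class. Its 88683 bp carried 9 peaks that covered 24.5%, and the first began 13679 bp from the start. None of the 9 passed a fold enrichment of 3.08. Taking the constitutive core and 19S genes together, all 31 had a peak, the median covered share was 80.3% and 28 of the 31 had a P below 1e-05.

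The assembly chaperones had median highest folds of 3.10 (19S) and 3.17 (20S), against 3.64 for the core and 19S genes. Of the 19S chaperones, Psmd5 had 57.7% of its body covered at a fold enrichment of 3.73, Psmd10 (gankyrin) 43.9% at 2.78, and Psmd9 12.7% at 3.10. The body of Psmd9 was annotated at 80719 bp, and on its coding transcript of 21942 bp the share was 46.6%. The 20S chaperones work as the pairs Psmg1 with Psmg2 and Psmg3 with Psmg4. Psmg1 and Psmg2 were covered over 79.0% and 75.03%, and Psmg3 and Psmg4 over 43.9% and 4.48%. Psmg4 had the smallest share of any gene with a peak, 681 bp out of 15210. Not one of the 4 had a P below 1e-05, whereas 28 of 31 core and 19S genes did. Such a peak lay on 24.6% of all coding genes, so its absence from 4 genes does not set them apart. All covered bases of Psmg3 lie where it overlaps Gm26938, so its own signal could not be separated.

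The activators open the core without ubiquitin. Psme1 and Psme2, whose products form a mixed ring induced by interferon, differed, with 18.1% and 65.9% of the body covered. The peak on Psme1 was 1161 bp wide with a fold enrichment of 3.71, and 617 bp of it lay on Psme1, the rest running into Emc9. Psme2 had a lower peak, of 3.05. Psme3, the nuclear activator, was at 67.7% and 3.20. Psme4, the activator for acetylated histones, had 9 peaks over 65.01% of 108636 bp, the longest body of all members, and the first began 20505 bp from the start. Psmf1, known as an inhibitor of the core particle in vitro, was at 70.9% and 3.17.

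Of the symbols that fit the rule without a place in the complex, Psmc3ip, a meiotic recombination factor, had 59.4% of its body covered at 3.81, by a peak also lying on its neighbour Mlx. Psme2b, of 837 bp, had none, and its nearest peak was 78330 bp away. The 4 annotated pseudogenes of the family (Psmb5-ps, Psmb6-ps, Psmb6-ps2 and Psmb7-ps2) had no base in a peak.

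**Figure D3:**
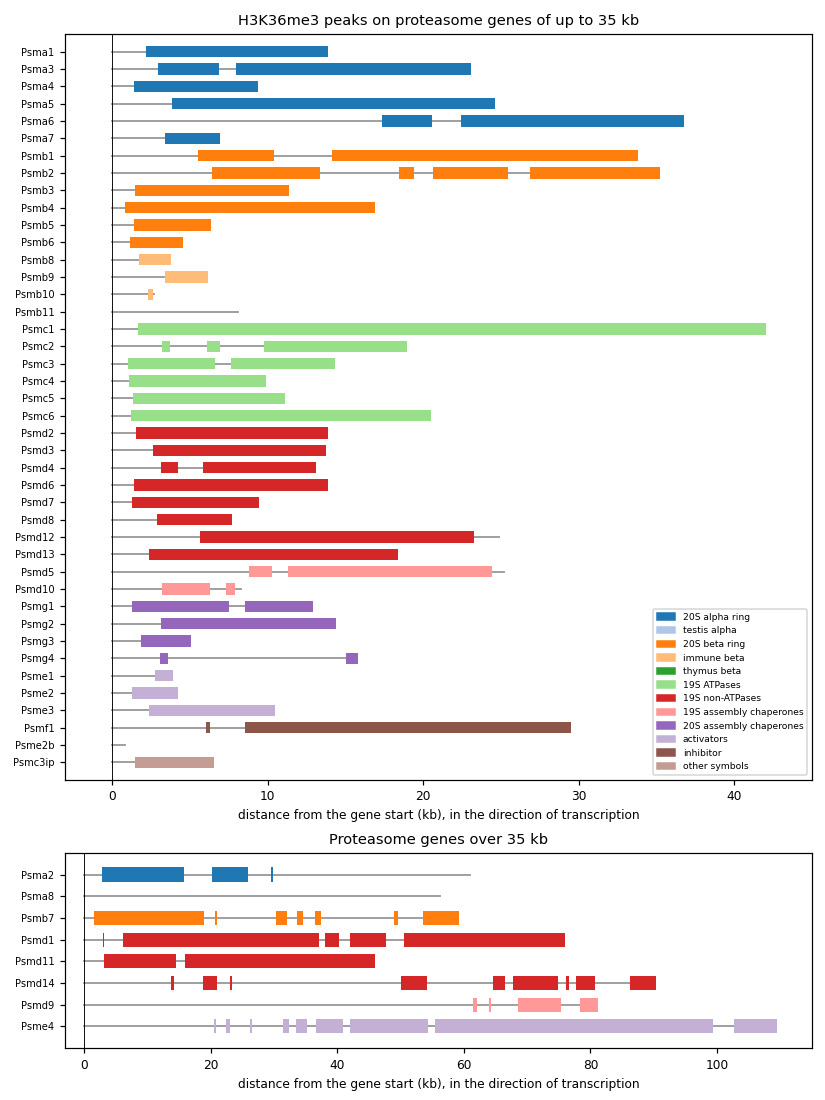
H3K36me3 peaks (bars, coloured by subunit class) along the 50 proteasome genes (thin lines), drawn to scale in kb from the annotated gene start in the direction of transcription. No bar reaches the start, and the bar of Psmc1 runs 28821 bp past the gene end.

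Along the longest coding transcript, the peaks on proteasome genes began downstream of the first exon. In most members a peak also ran past the transcript end. None of the 47 members with a peak had a peak base in the first exon, as for 97.2% of coding genes with several exons and a peak. The last exon lay wholly in peaks in 43 of the 47 (91.5%), against 55.6%, and the exceptions were Psmb10 (70.1% of the exon), Psmd10 (53.1%), Psmd5 (73.9%) and Psmg4 (92.7%). More covered bases lay on the 3′ side of the gene's midpoint in 43 of 47, a share of 91.5% against 86.3%. The members with more on the 5′ side were Psma2, Psmb7, Psmc3 and Psmg4.

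Along the longest coding transcript the first peak base lay in intron 1 in 14 members, in intron 2 in 16 and in intron 3 in 8. It lay 1 to 4 kb from the start in 38 members. Only Psmb4 (805 bp) and Psmc3 (988 bp) had it nearer than 1 kb. The median of this distance was 2553 bp (quartiles 1451.5 and 3142.5), against 3570 bp (2058 and 8212) over all coding genes with a peak. Over other coding genes between the length quartiles of the members it was 3031 bp (1997 and 5182.5). The counts by intron and by distance were not made over all coding genes. At the other end, a peak passed the transcript end in 44 of 47 (93.6%), against 64.3% of coding genes with several exons and a peak. It did so by a median of 1756 bp and by as little as 71 bp (Psmb8). In Psma2 and Psmd12 the annotated body ends farther on, and no peak reached that end. In the 1.5 kb upstream of the gene, 44 of 50 members (88.0%) had no peak base, against 95.7% of all coding genes. Among genes with a peak on the body it was 41 of 47 members (87.2%), against 93.2%. The largest upstream shares were 79.7% (Psmd9) and 60.4% (Psmb8), counted from the annotated gene start. For Psmd9 this start is chr5:123169413, whereas its coding transcript starts at chr5:123228190. Tap1 lies 495 bp from Psmb8 on the upstream side. How much of the upstream signal belongs to neighbours was not tested.

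Exons were covered more than introns in 33 of 47 members (70.2%), near the 74.7% of coding genes with several exons and a peak. The median shares were 76.3% of exon bases and 67.7% of intron bases, and 69.3% and 44.0% over all coding genes with a peak. Other coding genes with a peak between the length quartiles of the members had 71.7% and 53.9%. The gap between members and other genes was therefore wider in introns than in exons, and smaller against these genes than against all.

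**Figure D4:**
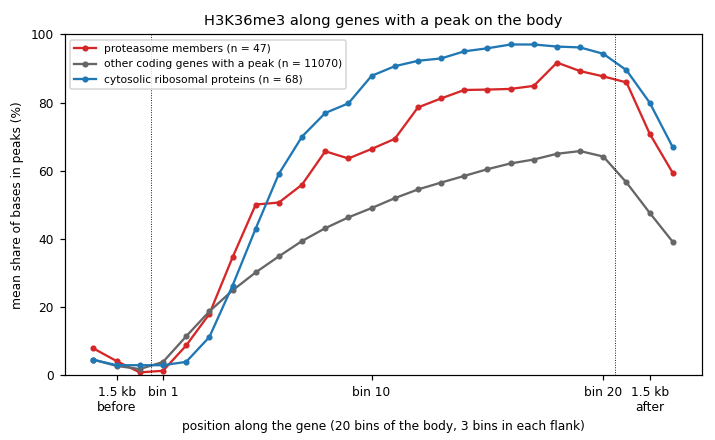
Mean percent of bases in H3K36me3 peaks in 20 equal bins of the gene body and in 1.5 kb on each side, for proteasome genes, other coding genes with a peak and ribosomal protein genes. The proteasome line rises from 1.31% in the first bin to 91.7% in bin 18, where the other coding genes reach 64.99%. Genes under 2000 bp were left out.

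Averaged over the 47 members, 1.31% of the first of 20 bins lay in peaks, 50.1% of bin 5, 66.4% of bin 10 and 91.7% of bin 18. For 11070 other coding genes with a peak the same bins held 3.90%, 30.2%, 49.1% and 64.99%. Genes under 2000 bp were left out of these averages. Within the body the members lay lower in the first 3 bins and higher at bins 5, 10 and 18. In the farthest of 3 upstream bins the members were at 7.86% and the other genes at 4.55%. At the end of the 1.5 kb downstream it was still at 59.3%, against 39.1%.

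Several peaks were shared with neighbours, which limits what a peak says about 1 gene. In 14 members a peak also lay on another coding gene, and in 33 it did not. The peak over Psmc1 (chr12:100111795-100152226) was 40432 bp wide, of which 28.7% lay on Psmc1, and it also covered Nrde2. The peak over Psmb4 (chr3:94870055-94886156) was 16102 bp wide with 12.8% of it on Psmb4, and it also lay on Pogz. The bodies of 13 members overlap another coding gene in the annotation. Neither the shared peaks nor the overlapping bodies were counted over all coding genes.

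The authors' annotation gave each peak to 1 nearest gene, and 41 members (82.0%) were named by it, against 45.4% of all coding genes. It gave every body peak to the member itself in 32 cases and to another gene in some cases for 8 members. For 7 members it gave all of them to another gene. This split was not counted over all coding genes, so it cannot be read as particular to the members. The peak of Psmb5 was given to Mir686, that of Psmc5 to Gm23645, that of Psmd12 to Gm11722, that of Psmg3 to Gm26938, that of Psme3 to Aoc2 and that of Psmc3ip to Mlx. The 7 peaks of Psmb7 were given to Gm13586, Gm27634 and Gm44183. A list of marked genes drawn from that column would leave out Psmb5 and Psmb7, although their bodies were covered over 63.2% and 43.5%.

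Of the 94 peaks, 59 were annotated as promoter, 16 as intron, 9 as 3′ UTR, 8 as exon and 2 as 5′ UTR. Over all peaks of the table, 40.2% were promoter, 32.8% intron, 9.31% 3′ UTR, 13.2% exon and 1.40% 5′ UTR. In ChIPseeker this class is set by the distance to the start of any transcript, and none of these peaks reached the first exon of the longest coding transcript.

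Other gene sets that most cells use were set beside the proteasome. Peaks lay on 77 of 81 cytosolic ribosomal protein genes (95.1%, median covered share 70.7%), on 52 of 55 translation initiation factor genes (94.5%, 69.3%) and on 85 of 94 nuclear respiratory chain genes (90.4%, 51.6%). The proteasome values, 94.0% and 64.1%, lay within these ranges. Their median highest folds were 3.66, 3.55 and 3.39, and that of the proteasome genes was 3.55.

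Genes that work with the proteasome had similar values, with a peak on 26 of 27 and a median covered share of 68.5%. Among those that deliver substrates, Ufd1 was covered over 91.4%, Nploc4 over 89.8%, Ubqln4 over 88.0% and Vcp, the unfoldase that Ufd1 and Nploc4 serve, over 86.4%. Pomp, the maturation factor of the core particle, was at 78.8%. The NRF1 gene Nfe2l1 and the protease gene Ddi2, whose product cuts NRF1 into its active form, were at 78.3% and 86.7%. The NRF2 gene Nfe2l2 was at 20.01%. Sem1, the smallest lid subunit, whose symbol falls outside the rule, was at 14.2%, and Ubqln2 had no peak.

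The cells were checked against marker genes. All 7 basal and all 5 differentiated KC markers carried peaks, beside 51.4% of all coding genes. The covered shares ran from 40.4% (Trp63) to 96.0% (Krt5) for basal markers and from 40.7% (Krt1) to 98.4% (Krt10) for differentiated ones. A peak with a P below 1e-05 lay on 6 of the basal and 1 of the differentiated markers, against 24.6% of all coding genes. None of 6 fibroblast markers had any peak. Peaks lay on 1 of 5 immune markers (Cd68, 100% covered), 1 of 4 endothelial (Pecam1, 0.275%) and 1 of 4 melanocyte markers (Pmel, 15.3%). The peak on Cd68 covered the gene from its start, and the authors' annotation named no immune marker. Whether that peak belongs to a neighbour was not tested. In a bulk library, the share of cells that carry a mark and its amount per cell cannot be told apart.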

How the data were processed

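Per the submitters' processing notes and the methods, the authors trimmed single-end reads with Cutadapt and Trimmomatic and mapped the rest with Bowtie2 2.2.6 on GRCm38. They called peaks on the H3K36me3 library with MACS2 2.1.1 and assigned each peak to a gene by ChIPseeker. The ChIPseeker release, and whether the input served as control, are not given in the sources used here. Each peak of the deposited table has a position and width in bp, the fold enrichment (a ratio), the −log10 P and the −log10 q, the annotated gene and the distance to its start. The table's lowest −log10 P was 2.76 and its lowest −log10 q 1.31. The labels state a longer fixation than the methods. The table gives no read counts, and sequencing depth is unknown.

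From these, peaks were laid on the coding genes of GENCODE on GRCm38 (overlap of at least 1 bp), and covered bases were counted with Python 3.11.15, NumPy 2.4.6 and pandas 2.3.3. The counting was tested on simulated data. Promoter windows came from RefSeq (GRCm38.p6).

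Members, gene lists and the motif were chosen with earlier results of these data known. The text names every member without a peak, the immune genes, the extremes of each class, the 5 highest folds, and members whose peaks were given to other genes; other members were named after their values were seen. With 1 library there was no test. The alternatives were stricter P, q or fold limits, merged peaks, other gene spans, unshared bases and other counting rules.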

Additional observations from a re-analysis of the deposited data

How the results depend on the processing

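With peaks of a P below 1e-05 the median covered share of the members was 42.4% instead of 64.1%, and 33 members had a peak. This limit left 14 more genes without a peak, among them Psmb8, Psmb10, Psmd14 and all 4 Psmg genes. With the median over the peaks on each body in place of the highest peak, the median fold enrichment was 3.38 instead of 3.55. Under a fold of at least 3 or a q below 0.01, 45 members had a peak, and Psmb10 and Psmd10 did not. On unshared bases 46 had one, and Psmg3 did not. Without Psmc3ip and Psme2b, 46 of 48 had one. The count with more covered bases on the 3′ side ranged from 29 of the 33 members with a peak (P below 1e-05) to 45 of 47 (RefSeq span, an alternative chosen after seeing the data), beside 43 of 47 as reported, and was 35 of 47 when counted by peak midpoints. The covered share moved by over 1.5 times on the coding transcript span for Psma2, Psma6 and Psmd9. Merging peaks across 1000 bp moved no count. No paired analysis was possible because there was 1 ChIP library. The unknown depth limits what a missing peak means.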
